A study of Homo sapiens with 11 samples.

Results

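The NuRD remodeller and MTA scaffold genes are CHD3, CHD4 and CHD5, which encode alternative ATPases of NuRD, a complex for nucleosome remodelling and histone deacetylation, and MTA1, MTA2 and MTA3, which encode its scaffold subunits. They were chosen by name, 6 of the 20037 protein-coding genes of the RefSeq table, and peaks were collected over each gene body plus 50 kb on either side. These windows held 201 of the 134925 peaks in the 9 deposited lists. The question was whether NuRD sits at its own genes. The lists came from chromatin immunoprecipitation followed by sequencing (ChIP-seq) in SK-N-MC, a cell line established from Ewing sarcoma, a tumour driven by the fusion protein EWSR1::FLI1. All samples were labelled wildtype, and the labels give no treatment. There was 1 sample for each of 9 targets. They were 4 histone marks (H3K27ac on active promoters and enhancers, H3K4me1 on enhancers, H3K4me3 on promoters, H3K27me3 on Polycomb-repressed chromatin), FLI1, and 4 subunits of the complex. RBBP4, HDAC2 and MTA2 were pulled down with antibodies to the proteins themselves, and CHD4 through a Flag tag; how the tag was introduced is not stated in the labels. No list of the 2 input libraries was used. With 1 list a target and no read counts, no value below has a replicate error, the depth is unknown and no test could be made.

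NuRD joins an ATPase that slides nucleosomes with the histone deacetylases HDAC1 and HDAC2. Each complex holds a single kind of ATPase, CHD3, CHD4 or CHD5, and CHD5 is best known from neurons and testis and as a candidate tumour suppressor. The MTA proteins hold the deacetylases through their ELM2 and SANT domains and bind RBBP4 and RBBP7, which contact histones, while MBD2 or MBD3 and GATAD2A or GATAD2B link the remodeller to the rest. The complex is found at active promoters and enhancers as well as at silenced genes, so a peak by itself does not tell whether a gene is held down.

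The lists ran from 1561 peaks for FLI1 to 31247 for H3K4me1, and the smallest −log10 p was about 9 in 7 of them, 7.01 for RBBP4 and 5.02 for FLI1. Fold enrichment is the authors' value at a peak over the local background. It was ranked only within its list, as the percentage of that list's peaks with the same or a lower value, called the percentile below; percentiles and words such as strongest refer to fold enrichment unless −log10 p is named. The cell label was checked on 10 genes known to mark Ewing sarcoma: 9 had a FLI1 peak in gene body plus 50 kb, all but NPY1R, and 7 had both H3K4me3 and H3K27ac at the start, all but CD99, XG and NPY1R. Of all protein-coding genes, 8.41% had such a FLI1 peak, and 56.0% had H3K4me3 and 37.9% H3K27ac at the start. Of 12 markers of blood, epithelium, muscle and endothelium, KRT8 alone had H3K4me3 or H3K27ac at its start, and PTPRC, a blood marker, alone had a FLI1 peak in its window.

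At the gene starts subunits of the complex were found in part and unevenly. Within 1 kb of the annotated start, all 6 genes had H3K4me3 (56.0% of all protein-coding genes did), and 5 of 6 had a peak of at least 1 subunit (43.7% of all genes), MTA1 being the exception. Each subunit alone gave a different set. HDAC2 was at 4 of 6 starts, those of CHD3, CHD5, MTA2 and MTA3, against 37.6% of all genes. CHD4 was at 4 of 6, those of CHD3, CHD4, CHD5 and MTA3, against 9.67%. RBBP4 was at 3 of 6 (CHD3, CHD5 and MTA3), against 21.1%. The scaffold MTA2 was at the CHD5 start only, 1 of 6, against 19.7%. Of the marks, H3K27ac was at 4 of 6 starts (CHD3, CHD4, MTA1 and MTA2), against 37.9%. H3K4me1 was at 1 of 6, CHD5, against 4.99%.

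Since every gene of the group had H3K4me3 at its start, the 11219 genes with that mark there are the nearer comparison. Among those, 74.8% had at least 1 subunit at the start, 64.9% HDAC2, 36.7% RBBP4, 34.1% MTA2 and 16.1% CHD4. At least 1 subunit at 5 of 6, HDAC2 at 4 of 6 and RBBP4 at 3 of 6 were therefore near what such genes show. The CHD4 count was the furthest above it. That CHD4 count depended on where the start window was cut. At CHD3, CHD4 and MTA3 the CHD4 summits lay just outside it, at 1.079, -1.1 and 1.036 kb from the start (negative is upstream). By overlap within 2.5 kb of the start, CHD4 was at 5 of 6 and RBBP4 at 4 of 6. The share of all genes was not computed at that width. When the summit had to lie within 1 kb of the start, CHD4 was left at 1 of 6 (CHD5), against 9.16% of all genes, and RBBP4 also at 1 of 6 (CHD5), against 20.6%. At a −log10 p of at least 15, RBBP4 was left at 1 of 6 starts (CHD3), against 8.13%, and CHD4 was found at the same 4 starts, against 6.05%.

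**Figure D1:**
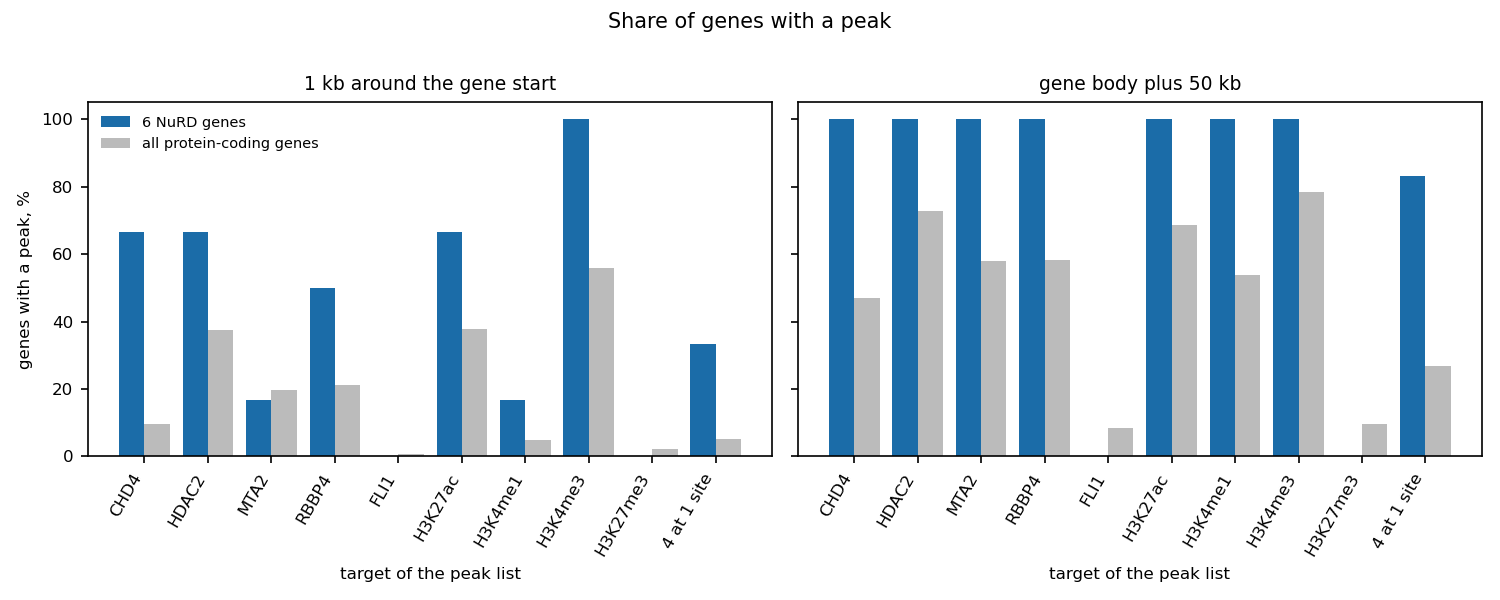
Percentage of genes with a peak of each target, for the 6 NuRD genes (blue, left) and all 20037 protein-coding genes (grey, right), within 1 kb of the start and in gene body plus 50 kb; the last pair of bars counts sites where peaks of all 4 subunits merge. CHD4 at the start stands at 4 of 6 genes against 9.67%, while FLI1 and H3K27me3 are at 0 of 6 in both panels.

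CHD3 (chromosome 17, 7884796 to 7912755) had the most subunit peaks of the 6 genes inside its own body. Peaks of all 4 subunits merged into a site of 2744 bp, from 7885554 to 7888297, that began 0.758 kb downstream of the annotated start. HDAC2 spanned it in a single peak, with a fold enrichment of 6.30 (percentile 77.4). CHD4 had 3 peaks inside it, at 5.14, 4.80 and 3.97 (percentiles 65.1, 54.9 and 26.6). RBBP4 had a pair, at 4.94 and 5.08 (percentiles 69.3 and 72.5). The scaffold MTA2 was there with a pair of peaks of low fold enrichment, at 4.43 and 4.30 (percentiles 8.71 and 7.06). By −log10 p those MTA2 peaks were at percentiles 4.33 and 42.0. This site lay in strongly marked chromatin, under H3K27ac at 14.3 and H3K4me3 at 19.3 (percentiles 91.5 and 66.2). A second site with HDAC2 at 4.15 and MTA2 at 6.41 followed at 7889016 to 7889517, within H3K27ac and touching H3K4me1 at its edge. It lay past the only CHD3 start listed among the RefSeq promoters, 3.99 kb into the gene. The annotated start lies within the end of NAA38, 624 bp from it, so peaks there cannot be given to either gene.

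CHD4 (chromosome 12, 6570082 to 6607379, minus strand) had the reverse: a strongly marked start with almost no NuRD on it. H3K4me3 at 23.0 (percentile 83.5) and H3K27ac at 14.7 (percentile 92.5) covered the start. No peak of HDAC2, MTA2 or RBBP4 lay within 1 kb, and CHD4 had no peak in the body of its own gene. The only subunit peak nearby was one of CHD4 itself, 0.783 kb upstream of the start at 6608162 to 6608784, at 4.04 (percentile 29.3), with no mark under it. The complex was found 5.395 kb upstream instead, between protein-coding genes, where all 4 subunits merged over 1673 bp from 6612774 to 6614446. This site had the highest-ranked subunit peak of all 6 windows, MTA2 at 11.8 (percentile 94.8). A weaker MTA2 peak was at 5.09 (percentile 18.7). The strongest of the 20 CHD4 peaks was also in this site, at 5.76 (percentile 78.6), overlapping the weaker MTA2 peak. The MTA2 peak at 11.8 overlapped another CHD4 peak instead, at 4.26 (percentile 36.9). A single HDAC2 peak spanned both pairs. HDAC2 was at 3.80 there (percentile 12.2 by fold enrichment and 58.2 by −log10 p), and RBBP4 had peaks at 3.95 and 3.33 (percentiles 39.0 and 16.8). The merged site overlapped H3K27ac at 13.6 and 10.3, touched H3K4me1 at 7.65 and 5.46 at its edges, and had no H3K4me3. The only CHD4 start listed among the RefSeq promoters lies 0.928 kb into the gene. The promoter around it is shown as a start that carries active marks and no subunit peak. All letters are in lower case because no base lies in a subunit peak (GRCh38.p14, chr12:6606402-6606701, minus strand).
CHD4 promoter: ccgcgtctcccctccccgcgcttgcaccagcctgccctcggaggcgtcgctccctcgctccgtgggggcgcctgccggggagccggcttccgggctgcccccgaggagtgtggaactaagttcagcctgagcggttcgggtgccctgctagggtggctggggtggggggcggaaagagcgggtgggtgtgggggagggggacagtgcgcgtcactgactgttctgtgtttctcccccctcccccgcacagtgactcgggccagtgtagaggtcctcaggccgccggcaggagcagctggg

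CHD5 (chromosome 1, 6101787 to 6180321) was the only one of the 6 genes with a peak of each of the 4 subunits within 1 kb of its start (5.07% of all genes), and the strongest H3K4me3 peak at its start ranked lower than that of any other of the 6. Its strand was not in the table used, so both ends were searched, and every peak near an end lay at the upper one, 6180321, from which distances are given. HDAC2 covered 6180290 to 6181488 at 4.12 (percentile 20.6). CHD4 was at 3.45 (percentile 11.7). RBBP4 was at 2.79 (percentile 3.76), and its −log10 p of 8.38 is below the minimum of the other 3 subunit lists. MTA2 had a pair of peaks, at 6.56 and 5.69 (percentiles 48.3 and 30.2). All 5 peaks were thus below the middle of their lists by fold enrichment. By −log10 p, HDAC2 and the second MTA2 peak were just above it, at percentiles 52.7 and 52.1, and RBBP4 stayed low at 3.41. H3K4me3 was a narrow peak of 328 bp at 6.58 (percentile 4.74), against a median width of 1200 bp in its list. H3K4me1 lay beside it at 4.55 (percentile 12.5). No H3K27ac peak was found at this end or in the gene body, and the nearest in the window was at the start of the ribosomal protein gene RPL22, the neighbour. The gene body held no peak of any mark.

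**Figure D2:**
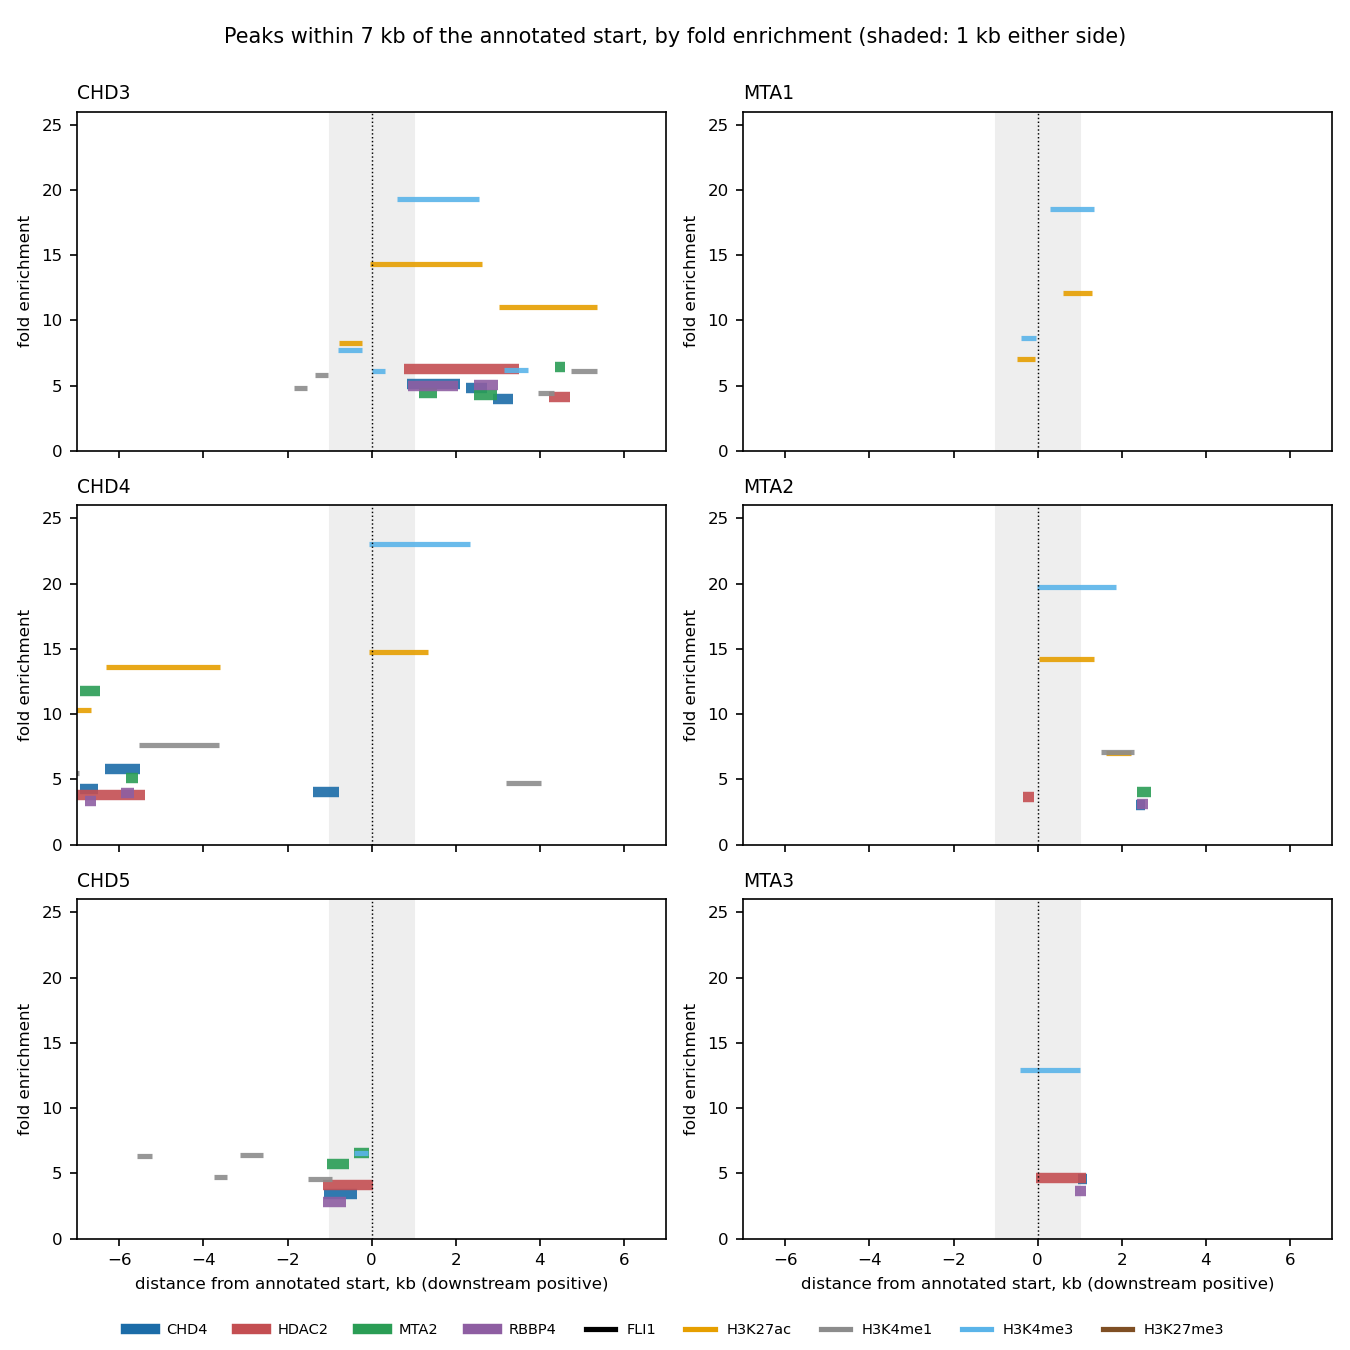
Peaks within 7 kb of each annotated start (for CHD5, the upper annotated end), drawn from their first to their last base at their fold enrichment; thick bars are NuRD subunits, thin bars are marks. CHD3, CHD4, CHD5 and MTA2 have peaks of all 4 subunits in this span, merged into 1 site for the first 3 of them, and MTA1 has none; heights of different targets are not comparable.

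MTA1 (chromosome 14, 105419827 to 105470729) had no subunit at its start. H3K4me3 at 18.6 (percentile 62.6) and H3K27ac at 12.1 (percentile 84.9) were present just downstream, and both marks also lay upstream, beside the divergent transcript MTA1-DT, at 8.68 and 7.02. The nearest subunit peak to the start was of MTA2, 8.331 kb upstream in TEX22. NuRD subunits were found at the other end of the gene. HDAC2 at 5.92 (percentile 70.4) and CHD4 at 5.12 (percentile 64.4) shared a site of 289 bp across the last bases, 105470631 to 105470919, under H3K27ac. All 4 subunits met 2.953 kb beyond that end, at 105473682 to 105474386, near the start of CRIP2, which encodes a LIM-domain protein.

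MTA2 (chromosome 11, 62593214 to 62601865, minus strand), whose product was itself a ChIP target, carried subunit peaks of low fold enrichment at its start and in its interior. HDAC2 alone lay 0.081 kb upstream of the start, at 62601946 to 62602212, with 3.64 (percentile 9.14), between MTA2 and EML3. An annotated end of EML3 lies at 62602218, 353 bp from the MTA2 start and nearer to this peak than that start is. The peak therefore cannot be assigned to either gene. Inside the gene, 2.335 to 2.372 kb from the start, CHD4 at 3.06, MTA2 at 4.01 and RBBP4 at 3.13 shared a site of 369 bp without HDAC2. Those 3 peaks were at percentiles 4.18, 4.35 and 11.0. The MTA2 protein was thus found at its own gene, in a peak that ranked low in its list also by −log10 p (percentile 12.9). The start itself was strongly marked, by H3K4me3 at 19.7 (percentile 68.4) and H3K27ac at 14.2 (percentile 91.2), and neither mark overlapped the 2 subunit sites. RefSeq lists 2 MTA2 promoters. The other lies 0.615 kb further in and has no base in a subunit peak. The promoter at the annotated start is shown with the bases that lie in the HDAC2 peak in capitals (GRCh38.p14, chr11:62601816-62602115, minus strand).
MTA2 promoter: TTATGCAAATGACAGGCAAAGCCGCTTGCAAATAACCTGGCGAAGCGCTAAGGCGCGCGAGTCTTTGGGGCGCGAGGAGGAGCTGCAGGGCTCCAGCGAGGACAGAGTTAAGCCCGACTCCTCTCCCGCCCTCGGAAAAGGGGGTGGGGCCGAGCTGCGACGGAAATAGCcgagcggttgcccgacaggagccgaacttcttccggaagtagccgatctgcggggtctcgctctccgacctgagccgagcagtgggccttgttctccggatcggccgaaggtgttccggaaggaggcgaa

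MTA3 (chromosome 2, 42494110 to 42756946) is the longest of the 6 genes and had NuRD subunits at each of its RefSeq starts, in different sets and with different marks. At the first start, HDAC2 at 4.63 (percentile 36.2) ran from 42494079 to 42495254. CHD4 at 4.57 (percentile 47.8) and RBBP4 at 3.61 (percentile 26.2) began 0.965 and 0.889 kb downstream. The mark there was H3K4me3 at 12.95 (percentile 33.7), without H3K27ac. KCNG3, a potassium channel gene, has an annotated end 128 bp from this start, so these peaks cannot be assigned to either gene.

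The second start lies 73.9 kb further in, and its strongest marks lay downstream of it. The start itself lay under H3K27ac at 5.55 (percentile 19.9) and H3K4me1 at 6.88 (percentile 72.5), with no H3K4me3 peak over it. Just downstream of it H3K27ac reached 18.7 and H3K4me3 26.5, the highest percentile of each at any of the 6 genes themselves (97.5 and 92.7). HDAC2 at 6.36 (percentile 78.4) and MTA2 at 8.19 (percentile 74.8) overlapped from 42568020 to 42568615, and a further HDAC2 peak at 4.77 followed. CHD4 and RBBP4 had no peak there. MTA3 was the only window without a site of all 4 subunits. The 2 promoters are shown because they differ in subunits, marks and base content, with the bases inside a subunit peak in capitals (GRCh38.p14, plus strand, chr2:42493860-42494159 and chr2:42567795-42568094).
MTA3 first promoter: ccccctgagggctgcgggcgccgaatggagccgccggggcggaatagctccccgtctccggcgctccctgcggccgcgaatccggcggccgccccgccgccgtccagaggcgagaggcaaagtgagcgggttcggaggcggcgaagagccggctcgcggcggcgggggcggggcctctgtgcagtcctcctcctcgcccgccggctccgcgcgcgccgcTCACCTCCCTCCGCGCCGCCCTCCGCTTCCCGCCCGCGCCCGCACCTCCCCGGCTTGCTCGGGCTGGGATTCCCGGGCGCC
MTA3 second promoter: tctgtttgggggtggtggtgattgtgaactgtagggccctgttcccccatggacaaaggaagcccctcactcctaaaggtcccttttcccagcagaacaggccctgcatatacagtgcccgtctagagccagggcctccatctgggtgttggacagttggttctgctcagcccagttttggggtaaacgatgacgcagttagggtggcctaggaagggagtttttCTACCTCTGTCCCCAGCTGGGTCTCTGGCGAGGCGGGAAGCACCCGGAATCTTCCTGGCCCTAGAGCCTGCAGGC

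The first MTA3 promoter holds 49 CG dinucleotides, at percentile 98.4 of the 22175 RefSeq promoters of protein-coding genes, and the second holds 6. The MTA2 promoter shown holds 30, the other MTA2 promoter 38 and the CHD4 promoter 24, against a median of 21 over all of them. The core ETS motif CCGGAAG, which FLI1 and related factors bind, was searched on both strands, overlapping matches counted. It occurred 3 times in the MTA2 promoter shown, where matches on the 2 strands overlap, once in the CHD4 promoter and in neither MTA3 promoter. The other MTA2 promoter and the listed promoters of CHD3 and MTA1 do not hold it. Of all 22175 promoters 12.8% hold it. The GC box GGGCGG, in 56.3% of them, occurred 5 times in the first MTA3 promoter and not in the second, and once each in the MTA2 and CHD4 promoters. These matches describe the letters in these windows only.

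**Figure D3:**
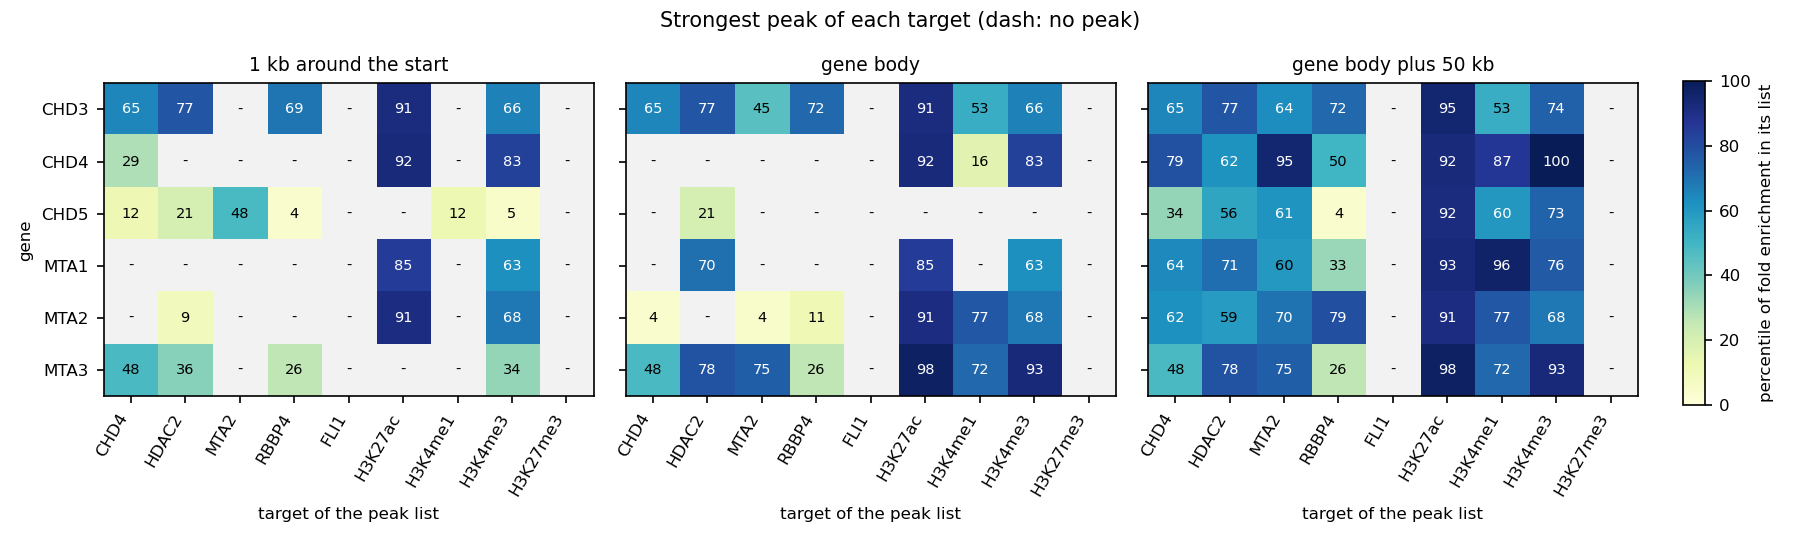
Strongest peak of each target at each gene, as the percentile of its fold enrichment in the target's list, within 1 kb of the start, in the gene body and in gene body plus 50 kb; a dash means no peak. At the starts H3K27ac is at percentiles 84.9 to 92.5 where present, and at the CHD5 start every target is below the middle of its list.

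Sites with all 4 subunits, formed by merging peaks that share at least 1 bp, were counted next. At the start they were found in 2 of 6 genes, CHD3 and CHD5 (5.17% of all genes), and the same 2 of 6 had 1 touching the gene body (11.0% of all genes). At least 1 subunit touched 5 of 6 gene bodies, all but that of CHD4 (50.7%). In gene body plus 50 kb, 5 of 6 genes had such a site, all but MTA3, against 26.7% of all genes. The 8 sites were 2 each in the windows of CHD3, CHD4 and MTA2 and 1 each in those of CHD5 and MTA1. With a flank of 10 kb there were 4. At a −log10 p of at least 15 there were 3 sites in the windows of 2 of 6 genes, against 15.2% of all genes.

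Most of the sites with any subunit in these windows lay at other genes. There were 37 merged sites with at least 1 subunit, called NuRD sites below. Of these, 18 held 1 subunit only and 8 held all 4, so a NuRD site need not hold the whole complex. By place, 11 of the 37 touched 1 of the 6 genes or lay within 1 kb of it. A further 18 were within 1 kb of an end of another protein-coding gene, 7 were in the body of another and 1 was between genes. Every subunit had a peak in all 6 windows, which is read against 72.7% of all genes for HDAC2, 58.2% for RBBP4, 58.1% for MTA2 and 46.9% for CHD4, and 79.2% for any subunit. With a −log10 p of at least 15 RBBP4 was left in 3 of 6 windows (CHD3, CHD4 and MTA2), against 34.3%. H3K4me3, H3K27ac and H3K4me1 were also in all 6 windows, against 78.3%, 68.7% and 53.9%.

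**Figure D4:**
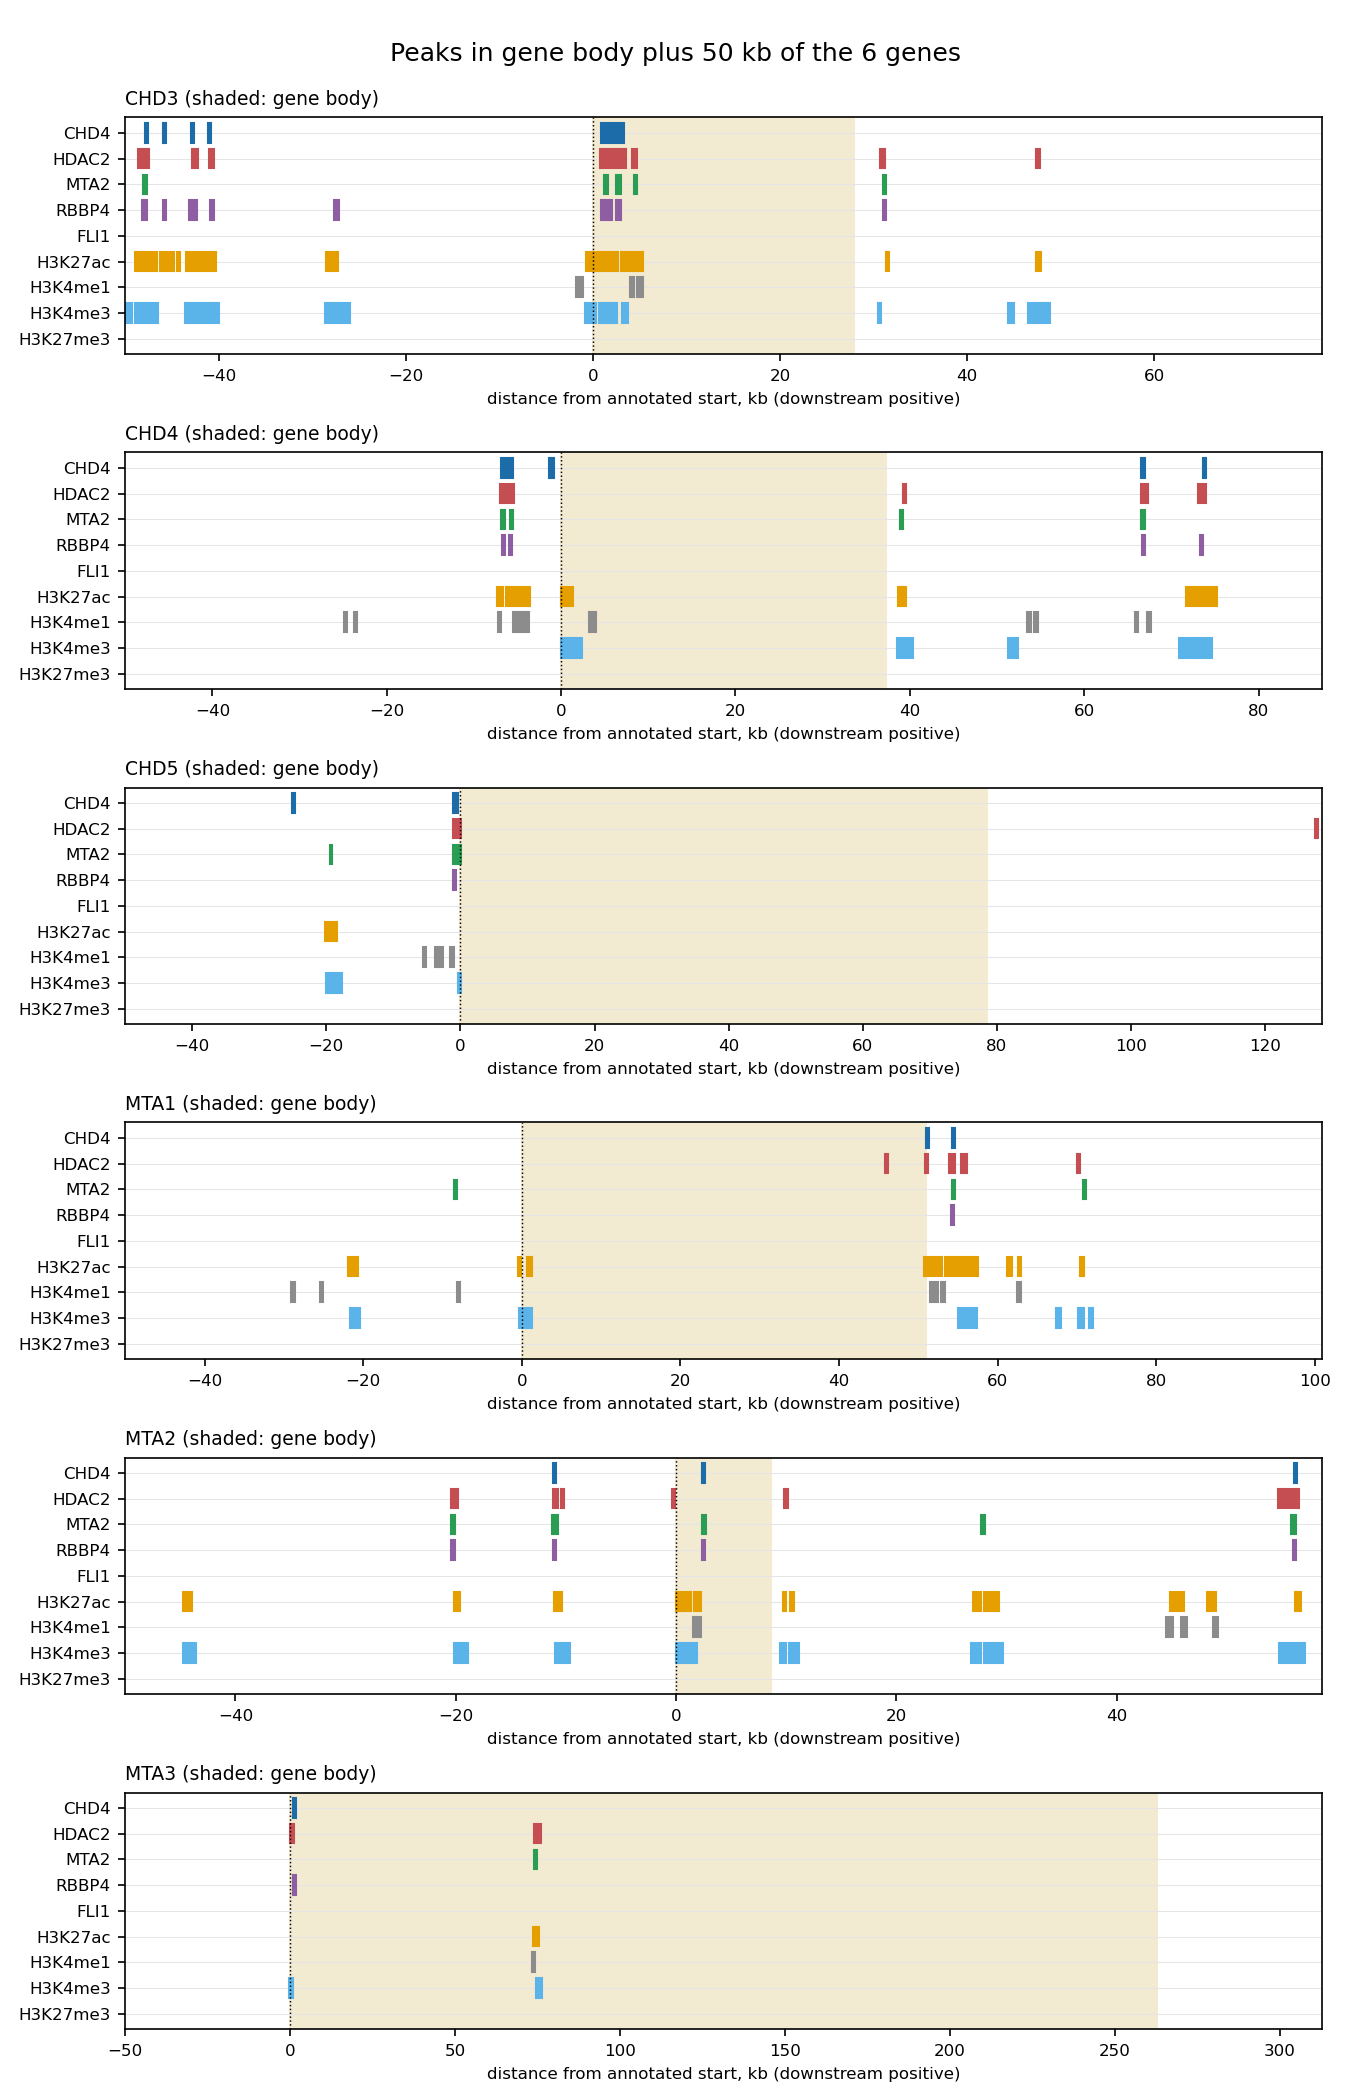
Peaks of the 9 targets along gene body plus 50 kb of each gene, by distance from the annotated start (for CHD5, the upper annotated end) in kb; shading marks the gene body, and short peaks are drawn wider than they are so that they can be seen. Peaks gather at gene starts and in the flanks, and the FLI1 and H3K27me3 rows are empty in all 6 windows.

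These windows differ in length and in neighbours. They spanned from 108.652 kb for MTA2 to 362.837 kb for MTA3, against a median of 124 kb over all genes. They held 9 other protein-coding genes for CHD3, 8 for MTA2, 7 for CHD4, 5 for MTA1, 4 for CHD5 and 3 for MTA3, against a median of 2. Per 100 kb of window, HDAC2 peaks numbered 5.52 for MTA2, 5.47 for CHD3, 3.31 for MTA1, 2.91 for CHD4, 1.12 for CHD5 and 0.827 for MTA3, against a median of 0.966 over all genes. The order of HDAC2 density was close to the order of neighbour number, whose part in the counts was not tested. CHD4 peaks were densest at CHD3, at 5.47 per 100 kb, above or equal to 99.1% of genes, and then at CHD4, at 3.64 (97.1%). RBBP4 was densest at CHD3 too, at 6.25 (99.2%), and the protein MTA2 at the MTA2 gene, at 4.60 (97.9%). MTA3 had the sparsest window of the 6 for every subunit, at 0.276 per 100 kb for CHD4, MTA2 and RBBP4.

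**Figure D5:**
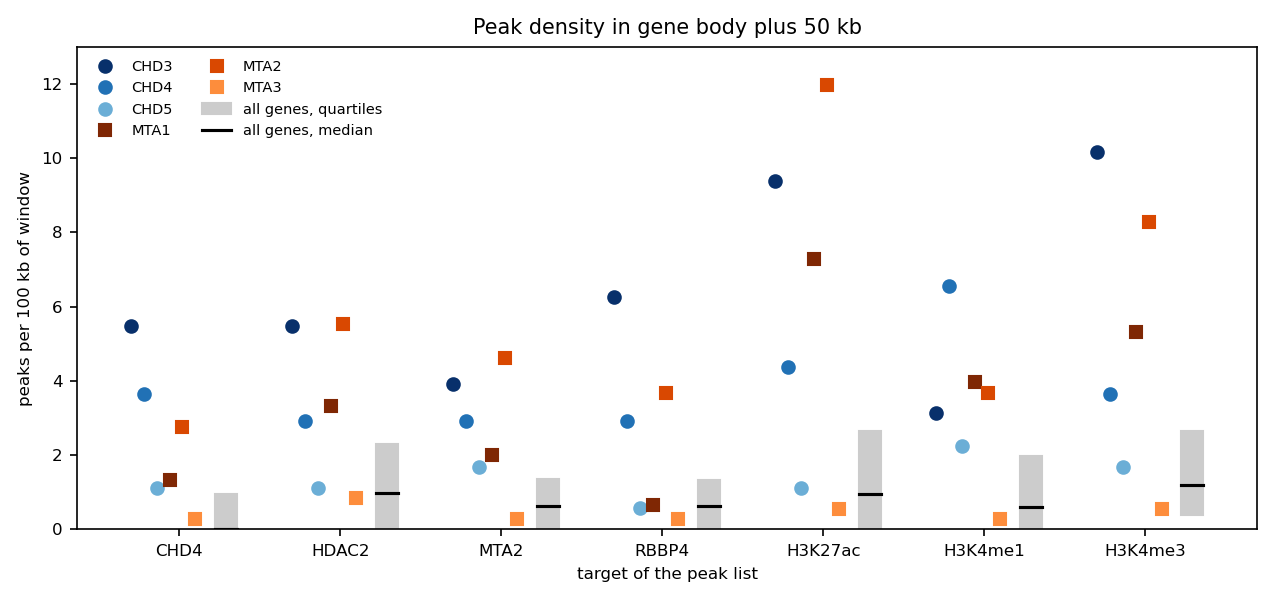
Peaks per 100 kb of gene body plus 50 kb for each gene (circles, remodellers; squares, scaffolds) beside the quartiles (grey boxes) and median (black lines) over all 20037 protein-coding genes, by target. CHD3, MTA2 and CHD4 lie above the upper quartile for all 4 subunits, and MTA3 lies below the median for HDAC2, MTA2 and RBBP4.

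FLI1 and H3K27me3 had no peak in any of the 6 windows. FLI1 was at 0 of 6 starts (0.739% of all genes) and in 0 of 6 windows (8.41%), and H3K27me3 at 0 of 6 starts (2.25%) and in 0 of 6 windows (9.51%). With 6 genes a count of 0 allows a share of up to 50.0%, taken roughly as 3 divided by the number of genes. Nothing about the group therefore follows from these zeros. The FLI1 peak nearest to a gene of the group lay 55.8 kb from CHD4, at 6663181 to 6663377 and weak at 3.89. Next was a strong peak 160 kb from MTA1, at 24.6. The others were 645 kb from CHD3, 649 kb from MTA2, 947 kb from CHD5 and 2811 kb from MTA3. The nearest H3K27me3 peaks were 61.9 kb from CHD5, at 10.7, and 92.5 kb from CHD4, at 6.32.

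The marks at the NuRD sites of these windows were compared with those at all 28995 merged sites. H3K27ac overlapped 25 of 37 sites (67.6%, Wilson 95% interval 51.5 to 80.4), against 45.2% of all sites. H3K4me3 overlapped 24 of 37 (64.9%, 48.8 to 78.2), against 41.6%. H3K4me1 overlapped 5 of 37 (13.5%, 5.91 to 28.0), against 27.9%. H3K27me3 overlapped 0 of 37, which allows a share of up to 9.41% by the Wilson interval, against 0.379%. At the 11 sites of the genes themselves the shares were 5 of 11 for H3K27ac (45.5%, 21.3 to 72.0), 5 of 11 for H3K4me3 and 3 of 11 for H3K4me1 (27.3%, 9.75 to 56.6), intervals that include the shares over all sites. The higher shares of H3K27ac and H3K4me3 in the windows rested on sites outside the 6 genes. These intervals cover counting error over sites only, and sites of the same window are not independent. The H3K4me1 overlaps were at the edges of sites: with the midpoint of the site required inside the mark, 0% of the 37 had it.

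By fold enrichment the subunit peaks in these windows ranked low to middling in their lists, and by −log10 p near the middle. The 27 HDAC2 peaks had a median percentile of 27.6, with 18 below the middle of the list. The 19 RBBP4 peaks had a median percentile of 26.2, with 14 below the middle. The 20 CHD4 peaks had 35.3, with 13 below. The 21 MTA2 peaks had 53.8, with 10 below. Only 1 of these 87 subunit peaks exceeded the 90th percentile, the MTA2 peak upstream of CHD4. By −log10 p the median percentiles were 41.2 for HDAC2, 42.9 for RBBP4, 53.5 for CHD4 and 47.3 for MTA2. Of the marks, the 46 H3K27ac peaks had a median percentile of 65.4 by fold enrichment, with 9 above the 90th, the 28 H3K4me1 peaks 59.4 and the 40 H3K4me3 peaks 48.6.

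Other genes of the complex are given as counts. Of 9 genes for HDAC, RBBP, MBD, GATAD2 and CDK2AP1 subunits, all 9 had H3K4me3 at the start and 6 a subunit peak there. MTA2 and HDAC2 were at 4 starts each, RBBP4 at 3 and CHD4 at 1, that of GATAD2B. A site with all 4 subunits was in the window of 1 of 9, again GATAD2B, which links MBD proteins to the remodeller. Of 6 CHD genes outside the complex, all 6 had a subunit peak at the start. RBBP4 was at 5 of these starts, HDAC2 and MTA2 at 4 each and CHD4 at 1 (CHD2), and 3 windows had a site with all 4 subunits. Of 7 other ELM2-SANT scaffold genes (RCOR, MIER and RERE), 5 had a subunit peak at the start. HDAC2 and MTA2 were at 4 of these starts each, CHD4 at 3 (RERE, MIER1 and RCOR3) and RBBP4 at 2, and 5 windows had such a site. Of all genes, 26.7% had such a site in the window. At the start 43.7% had any subunit, 37.6% HDAC2, 21.1% RBBP4, 19.7% MTA2 and 9.67% CHD4. These are counts of a few genes each, read beside those shares, and the lists were not tested against each other.

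Genes most like each member were sought over the 9 targets by the Euclidean distance between percentiles of the strongest peak within 1 kb of the start, outside 500 kb of the member. A target with no peak at the start of either gene added no distance. For CHD4 the nearest was RPLP0, at 1.98 percentile points, and then RPS6 at 12.3. For MTA1 it was UBE2E3 at 0.409 and then ERBB2 at 1.83, and for MTA2 it was POGLUT3 at 3.09 and then BCL6 at 3.98. The other members had no such close match. Each of them also had peaks of more targets at its start, whose part in the distances was not tested. ID2 was nearest to CHD3 at 14.9, KIAA0040 to MTA3 at 16.9, and LOC112268384 to CHD5 at 19.98.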

How the data were processed

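The 9 samples with a peak list were used, each grouped by its labelled target. For the reads, the submitters' processing notes name GRCh38 and bedtools 2.27.1, deepTools 3.2.1, SAMtools 1.9, BWA 0.7.17, FastQC 0.11.7 and Trimmomatic 0.36, without roles. MACS2 stands in the deposited peak names; its version, its control library and any pooling are not stated in the labels. Each peak has a fold enrichment (a ratio), a −log10 p and −log10 q, and a score, as deposited by the authors; the score and −log10 q were not used. Genes, spans and promoters came from RefSeq GRCh38.p14. Strand was taken from its promoter table for 15842 of 20037 protein-coding genes, and for the other 4195 either end counted as the start. Exons and introns were not told apart. Coordinates are 1-based. Peaks were intersected in Python 3.11.15 with pandas 2.3.3 (minimum overlap 1 bp), and the counting functions were tested on simulated data. Promoters run from 250 bases before to 50 after a start. The genes, lists and rules were chosen with earlier results of these data known. All 6 genes are named. Other genes are named where a described peak lies within 1 kb of an end, or as the 2 genes nearest to a member by the distance rule. Genes named outside this rule (KDM6B, IFFO1, NOP2, TEX22 and single genes of the compared lists) were chosen after their values were seen. Alternatives varied the peak threshold, list length, summit rule, flank, start window, gene end, site definition and mark overlap.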

Additional observations from a re-analysis of the deposited data

How the results depend on the processing

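No paired analysis was possible because each target has 1 sample. When each list was reduced to its 2000 strongest peaks by −log10 p, the windows held 2 CHD4, 0 HDAC2, 2 MTA2, 1 RBBP4, 9 H3K27ac, 1 H3K4me1 and 2 H3K4me3 peaks. Starts and bodies then had 0 of 6 for every subunit, H3K4me1 and H3K4me3 and 2 for H3K27ac, windows had CHD4 in 1, HDAC2 in 0, MTA2 in 2, RBBP4 in 1, H3K4me1 in 1 and H3K4me3 in 2, and sites with all 4 subunits fell to 0 in 0 windows. Of all genes, windows at that setting had CHD4 in 10.7%, HDAC2 in 13.8%, MTA2 in 16.8%, RBBP4 in 11.4% and H3K4me3 in 23.6%, and starts had H3K27ac in 6.86% and the subunits in 0.908% to 4.09%, so the low counts say nothing particular about the 6 genes. NuRD sites per 100 kb were 0.375 instead of 3.47, and the mark shares at sites 50.0% for H3K27ac and 25% for H3K4me3. At a −log10 p of at least 15, RBBP4 had 7 peaks instead of 19, 1 start, 1 body and 3 windows, H3K4me1 had 18 peaks and 0 starts, and 3 sites with all 4 subunits lay in 2 windows. A flank of 10 kb left 11 CHD4, 15 HDAC2, 13 MTA2, 9 RBBP4, 22 H3K27ac, 16 H3K4me1 and 18 H3K4me3 peaks and 4 such sites. By summits, CHD4 and RBBP4 were at 1 start each and H3K4me1 at 0. Start windows of 2.5 kb, or any listed start (added after the data were seen), gave MTA2 at 3 starts and H3K4me1 at 3 or 4; either gene end gave H3K4me1 at 2. With the midpoint, H3K27ac was at 51.4% and H3K4me3 at 45.9% of sites and H3K4me1 at 0%; with 50% of the site, H3K4me3 was at 45.9% and H3K4me1 at 0%. Ranked by −log10 p, the median percentile of the window peaks was 53.5 for CHD4 instead of 35.3 and 42.9 for RBBP4 instead of 26.2. The other counts and medians changed by at most 1.5 times, and the other mark shares stayed within their Wilson interval. Fewer peaks enter the first 2 settings by construction; other causes were not tested.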

Other observations

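Several NuRD sites in these windows belong to neighbours. The KDM6B gene, which encodes a demethylase of H3K27me3, lies upstream of CHD3 with NAA38 and other genes between them. It held 4 merged sites in the window, from 7836137 to 7844320 on chromosome 17. CHD4 was at each of them, with fold enrichments of 3.19 to 4.28, and all 4 subunits were at the first. NOP2, a ribosomal RNA methyltransferase gene next to CHD4, had the strongest H3K4me3 peak of the 6 windows, at a fold enrichment of 35.8 (percentile 99.7), with HDAC2 at 3.74 and MTA2 at 7.90 and without CHD4 or RBBP4. A site with all 4 subunits inside IFFO1 (chromosome 12, 6540020 to 6540894) touched H3K4me1 at its edge only and had no H3K27ac or H3K4me3. At the boundary of EML3 and ROM1, beside MTA2, the strongest RBBP4 peak of the 6 windows, at 5.43 (percentile 79.2), lay in a site of all 4 subunits.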
